A study of Mus musculus with 2 samples.

Results

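The genes described here encode the subunits of the respiratory chain and of ATP synthase. They were chosen by symbol alone: mt-Nd, mt-Co, mt-Cytb and mt-Atp for the mitochondrial genome, and Ndufa, Ndufb, Ndufc, Ndufs, Ndufv, Sdh, Uqcr, Cox4i, Cox5, Cox6, Cox7, Cox8 and Atp5 for the nucleus. Of 111 symbols with these beginnings, 8 Ndufaf and 4 Sdhaf assembly factors and 1 pseudogene-type symbol were left out, which leaves 98 of the 32285 genes listed. The mitochondrial genome encodes 13 of the 98 and nuclear chromosomes encode 85. Complex I has 43 members, complex II 4, complex III 9, complex IV 23 (Ndufa4 and Ndufa4l2 counted here) and complex V, ATP synthase, 19. The rule for symbols used no levels of the members, although it was set with earlier results of these data known.

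The cells came from islets of the pancreas of NOD mice, a strain in which the immune system attacks beta cells. The mice were 5 weeks old at the start and ate 1 of 2 diets for 5 weeks: HAMS, a high-amylose maize starch, or HAMSAB, the same kind of starch carrying acetyl and butyryl groups. Each diet is represented by 1 droplet single-cell library that counts the 3' ends of transcripts as UMIs (unique molecular identifiers). No group in these data received a standard diet, and the number of mice behind each library is not given here. A difference between the libraries can therefore not be told apart from a difference between animals, islet preparations or library runs, and no test between the diets exists. Every interval printed here is a 95% interval for counting error only, and PCR and capture add variation that it does not hold.

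The respiratory chain passes electrons from NADH and succinate to oxygen and uses the energy to pump protons across the inner mitochondrial membrane, and complex V lets the protons back in to make ATP. Complexes I, III, IV and V combine subunits made inside the mitochondrion from its own genome with subunits made in the cytosol from nuclear genes, whereas complex II is wholly nuclear. In the beta cell, ATP made this way from glucose closes potassium channels and so triggers insulin release. Activated lymphocytes and macrophages also change their use of this pathway. UMIs count molecules at their 3' end, so a level in CPM, UMIs of the gene per 1000000 UMIs of the class, needs no correction for transcript length, although capture at internal A-rich stretches may differ between transcripts.

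Promoter sequences are shown for 5 nuclear members. The first pair belongs to Cox7a2 and Cox7a2l, close relatives in complex IV whose balance is described below. The other 3 show the motifs that respiratory chain promoters held more often than promoters at large. Each is the 250 bases before the RefSeq transcription start in GRCm38.p6, on the minus strand, and capitals mark the motif that the promoter is shown for. The intervals are chr9:79759854-79760103 for Cox7a2 and chr17:83514334-83514583 for Cox7a2l, both with GGGCGG in capitals, chr15:102671048-102671297 for Atp5g2 with GCGCATGC matched on both strands in an overlap, chr4:116075071-116075320 for Uqcrh with CCGGAAG matched on the opposite strand, and chr16:84834977-84835226 for Atp5j with AAGATGGC.
Cox7a2: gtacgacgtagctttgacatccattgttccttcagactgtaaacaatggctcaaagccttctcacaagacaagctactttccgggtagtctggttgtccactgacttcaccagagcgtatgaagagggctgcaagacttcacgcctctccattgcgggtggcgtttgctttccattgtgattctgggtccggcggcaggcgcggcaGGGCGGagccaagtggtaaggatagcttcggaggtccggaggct
Cox7a2l: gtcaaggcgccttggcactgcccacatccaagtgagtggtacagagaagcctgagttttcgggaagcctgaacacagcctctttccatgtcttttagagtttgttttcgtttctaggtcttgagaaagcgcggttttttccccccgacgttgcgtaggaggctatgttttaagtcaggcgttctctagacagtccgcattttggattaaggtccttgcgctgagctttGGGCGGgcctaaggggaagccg
Atp5g2: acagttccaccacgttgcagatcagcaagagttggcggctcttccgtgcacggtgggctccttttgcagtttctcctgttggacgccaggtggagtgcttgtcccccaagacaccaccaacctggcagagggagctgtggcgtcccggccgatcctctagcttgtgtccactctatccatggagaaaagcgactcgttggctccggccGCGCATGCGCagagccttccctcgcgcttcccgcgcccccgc
Uqcrh: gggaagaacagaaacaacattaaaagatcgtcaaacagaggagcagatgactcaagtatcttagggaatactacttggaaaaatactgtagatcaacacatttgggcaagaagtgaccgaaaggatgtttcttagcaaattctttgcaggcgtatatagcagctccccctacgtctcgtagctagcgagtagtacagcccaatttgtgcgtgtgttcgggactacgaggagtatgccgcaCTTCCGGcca
Atp5j: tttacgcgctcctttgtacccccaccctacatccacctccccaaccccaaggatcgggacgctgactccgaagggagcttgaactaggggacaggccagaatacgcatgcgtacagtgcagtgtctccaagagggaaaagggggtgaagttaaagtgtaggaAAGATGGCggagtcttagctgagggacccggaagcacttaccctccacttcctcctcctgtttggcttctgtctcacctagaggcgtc

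The RefSeq promoter table matched 69 of the 85 nuclear members, 1 of them by an older symbol, with 74 promoters that run from 250 bases before to 50 bases after the start. Both strands were searched for 6 motifs, and 32851 promoters of all genes gave the background. The NRF1 motif GCGCATGC was in 10 of the 74 promoters (13.5%) against 2.71% of all promoters, among them Atp5g2, Cox6a1, Uqcr11 and Uqcrc1. The ETS family motif CCGGAAG was in 17 (23.0%) against 8.86%, and the YY1 motif AAGATGGC in 10 (13.5%) against 2.75%. The GC box GGGCGG was in 30 (40.5%) against 35.7%, CCAAT in 31 (41.9%) against 37.4% and TATAAA in 9 (12.2%) against 13.6%. A match describes the letters in this window and is not a bound site. The promoters of Cox7a2 and Cox7a2l both held the GC box and none of the NRF1, ETS or YY1 motifs.

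The mitochondrial members lie on 1 circular chromosome, where neighbouring transcripts can share bases. In the GRCm38 annotation mt-Atp8 and mt-Atp6, which are read from the same RNA, share 43 bases at chrM:7927-7969 on the plus strand.
mt-Atp8 and mt-Atp6: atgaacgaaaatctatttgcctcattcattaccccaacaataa
This stretch, in which no base is capitalised, is printed because a molecule that ends there cannot be given to either gene. The mt-Nd4l and mt-Nd4 genes share 7 bases, mt-Atp6 and mt-Co3 share 1, and mt-Nd5 and mt-Nd6 share 14 on opposite strands. No source used here says how the authors' counting treated shared bases, strand, or nuclear copies and processed pseudogenes of these genes.

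The HAMS library held 4352 barcodes with 3599756 UMIs and the HAMSAB library 5022 with 4254040. After cells with fewer than 200 genes or more than 20% mitochondrial UMIs were set aside, 4185 and 4628 cells were left, with medians of 704 and 705 UMIs. The libraries shared 6 barcodes, 4 of them among the kept cells. Clusters were made without the 98 members and without any mt- gene, and were named from marker genes. Endocrine, immune, ductal and endothelial-like cells were all present, so the labelled islet preparation also holds infiltrating immune cells. Classes with at least 20 cells in each library numbered 14, and 3 of those are called here by their leading gene because too few markers were detected: Ifitm1, Mgl2 and Ppy. The endothelial-like class had as many fibroblast as endothelial markers among its 10 leading genes. Beta-like cells were 1346 in HAMS and 730 in HAMSAB and joined 2 clusters, 1 led by Ucn3 and Ins2 and the other by F830016B08Rik and Gm4841. The Ucn3 cluster held 76.8% of the HAMS and 51.5% of the HAMSAB beta-like cells, so beta-like totals compare different mixtures, and values within each cluster are given where they differ.

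Mitochondrial-encoded RNA was most abundant in alpha-like cells and high in the other endocrine classes. In the HAMS library the 13 mt- genes made up 2.13% of the UMIs of alpha-like cells, 1.85% of beta-like, 1.77% each of pDC-like and ductal-like, and 1.52% each of the Ppy cluster and delta-like cells. Macrophage-like cells followed at 1.22%, B-like at 1.09%, T-like at 0.904% and the Ifitm1 cluster at 0.859%. In the HAMSAB library alpha-like cells again led with 2.20%, followed by the Ppy cluster with 2.07%, beta-like cells with 1.85% and delta-like cells with 1.78%, and the Ifitm1 cluster was again lowest with 0.802%. Among the 13 pairs of neighbours in this order, 10 had overlapping intervals in HAMS and 9 in HAMSAB, so only the coarse order is resolved. The interval of alpha-like cells lay above that of beta-like cells in both libraries.

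The nuclear-encoded subunits were ordered otherwise. They made up 0.533% of the UMIs of T-like cells in HAMS and 0.515% in HAMSAB, 0.505% and 0.473% of B-like cells, and 0.442% and 0.466% of beta-like cells. In alpha-like cells, which led in mitochondrial RNA, the nuclear members held only 0.364% and 0.353%. Plasma-like cells had 0.444% and 0.530%, from 21 and 61 cells. Neighbours overlapped in 13 of 13 pairs in HAMS and 12 of 13 in HAMSAB. With islet hormones, Actb, Malat1 and mt- genes out of the denominator, T-like cells were first for nuclear subunits in both libraries, whereas over all UMIs plasma-like cells were above them in HAMSAB. For mitochondrial RNA alpha-like cells were first over either denominator, and T-like cells took the last place from the Ifitm1 cluster, which had 0.859% and 0.802% of all UMIs.

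**Figure D1:**
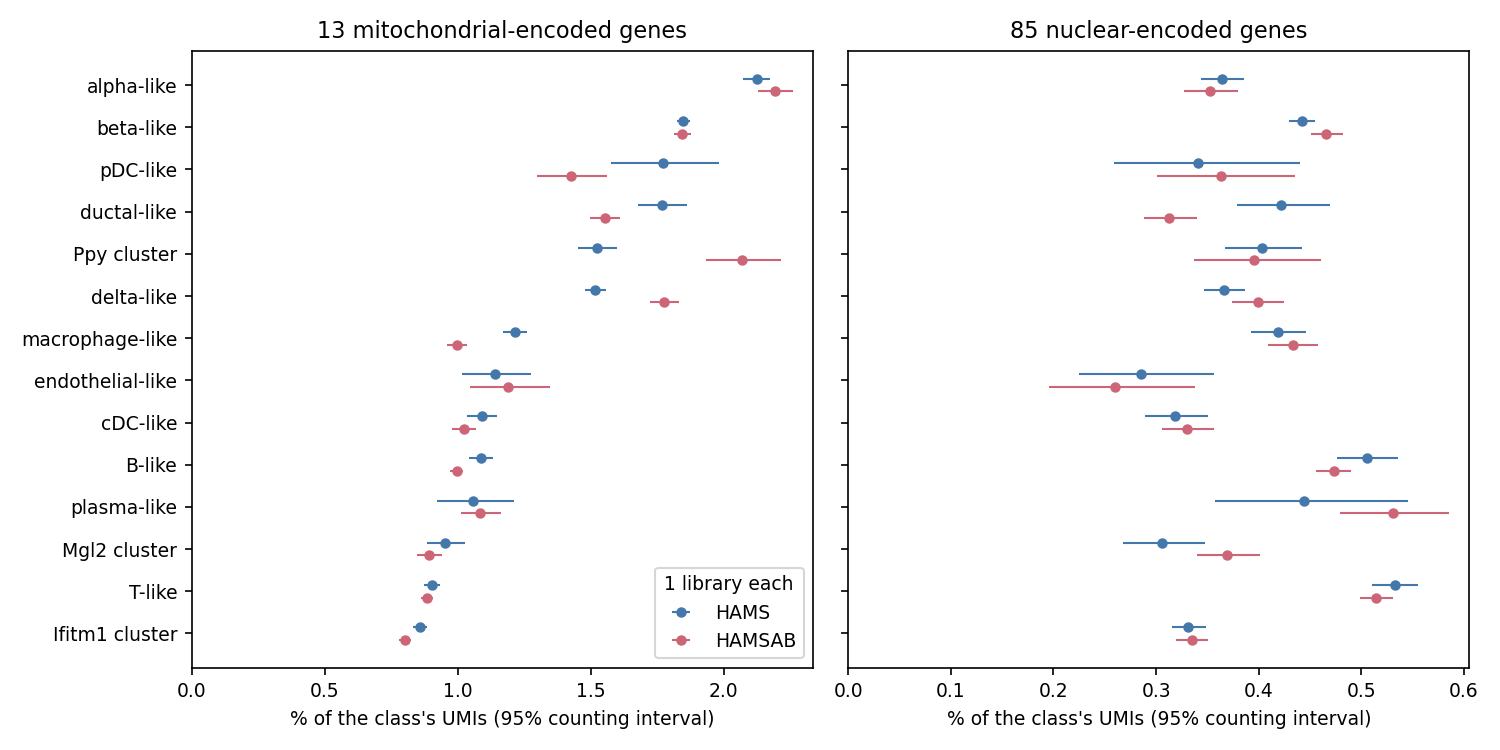
Mitochondrial-encoded (left) and nuclear-encoded (right) respiratory chain RNA as a percent of all UMIs of each of the 14 classes, with HAMS in blue and HAMSAB in red. Points are 1 library each and bars are 95% counting intervals; alpha-like cells sit highest on the left at 2.13% and 2.20%, and T-like cells near the top on the right at 0.533% and 0.515%.

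Set against each other, the 2 genomes gave T-like and alpha-like cells opposite places. Of all respiratory chain UMIs in T-like cells, 62.9% came from the mitochondrial genome in HAMS and 63.2% in HAMSAB, or 170 and 172 mitochondrial UMIs per 100 nuclear. In alpha-like cells the shares were 85.4% and 86.2%, or 584 and 622 per 100. Beta-like cells had 80.7% and 79.8%, and B-like cells 68.3% and 67.8%. In these 4 classes the libraries differed by less than 1 percentage point. The share was lower in HAMSAB in macrophage-like cells (74.4% and 69.7%), the Mgl2 cluster (75.7% and 70.7%) and pDC-like cells (83.9% and 79.7%). It was higher in the Ppy cluster (79.1% and 84.0%). Of these classes, only pDC-like cells had intervals that overlapped between the libraries.

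**Figure D2:**
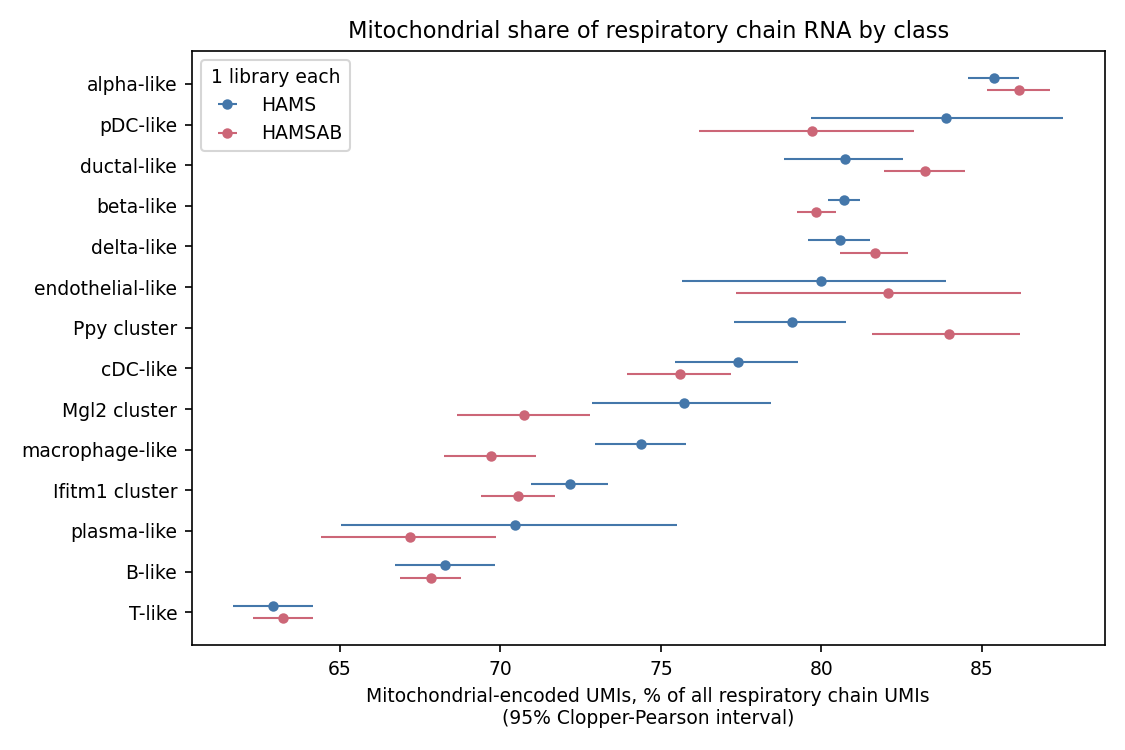
Share of respiratory chain UMIs that came from the mitochondrial genome, in percent, for each class in the HAMS (blue) and HAMSAB (red) library, with 95% Clopper-Pearson intervals. T-like cells lie lowest at 62.9% and 63.2% and alpha-like cells highest at 85.4% and 86.2%.

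The mt-Co1 transcript, for the catalytic subunit of complex IV, was the most abundant member in each of the 14 classes in both libraries and gave 35.5% of mitochondrial UMIs in HAMS and 36.5% in HAMSAB in beta-like cells. In T-like cells it gave 31.2% and 33.2%. The mt-Atp6 transcript, for the proton channel subunit of complex V, gave 10.3% and 10.1% in beta-like cells. The mt-Nd6 transcript, the only member encoded on the other mitochondrial strand, gave 3.18% and 2.35%. Among nuclear members in beta-like cells the highest level in HAMS was that of Cox7a2l, at 271 CPM against 246 in HAMSAB, and the highest in HAMSAB that of Atp5l, a membrane subunit of complex V, at 275 CPM against 234 in HAMS. In T-like cells the highest in HAMS was Atp5b, the catalytic beta subunit of complex V (398 and 297 CPM), and the highest in HAMSAB was Cox7b, a small subunit of complex IV (324 and 392 CPM).

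Between the diets, the log2 ratios of mitochondrial-encoded RNA lay on both sides of 0, depending on the cells. Over all kept cells it was 1.45% of UMIs in HAMS and 1.24% in HAMSAB, a log2 ratio of HAMSAB over HAMS of -0.22 (-0.24 to -0.20). The libraries held different mixtures of cells, and with the HAMSAB levels set in the HAMS mixture of classes the log2 ratio was 0.0089, with the HAMS levels set in the HAMSAB mixture -0.04. With the mixture of classes held fixed, most of the difference over all cells was no longer there. Within classes the log2 ratio was above 0 in 5 of 14 and below 0 in 9 of 14, with intervals clear of 0 in 2 and 5 of them. Beta-like cells had 1.85% in both libraries, a log2 ratio of -0.0035 (-0.04 to 0.03), and T-like cells a log2 ratio of -0.03 (-0.09 to 0.03).

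Delta-like cells had more mitochondrial RNA in HAMSAB, 1.78% against 1.52%, a log2 ratio of 0.23 (0.17 to 0.29), and the Ppy cluster 2.07% against 1.52%, a log2 ratio of 0.44 (0.32 to 0.56). Macrophage-like cells had less, 0.996% against 1.22% (-0.29, -0.36 to -0.21), as did pDC-like cells with 1.43% against 1.77% (-0.31, -0.53 to -0.10). Ductal-like cells had 1.55% against 1.77% (-0.19, -0.28 to -0.09), and B-like cells 0.997% against 1.09% (-0.12, -0.19 to -0.06). Insulin RNA moved beside 2 of these values: Ins1 and Ins2 together were 0.598% of UMIs in HAMS delta-like cells with a log2 ratio of -2.58, and 2.39% in HAMS and 0.271% in HAMSAB cells of the Ppy cluster. The part of whatever brought insulin RNA into these cells was not tested. Among cells with at least 500 genes the log2 ratio was -0.07 in delta-like and 0.18 in macrophage-like cells, so both directions turn with that limit.

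Nuclear-encoded RNA over all kept cells was 0.415% in HAMS and 0.428% in HAMSAB, a log2 ratio of 0.04 (0.01 to 0.08). The ratio was above 0 in 8 of 14 classes and below 0 in 6. Beta-like cells had a log2 ratio of 0.08 (0.01 to 0.14) and delta-like cells one of 0.12 (0.00 to 0.25). The Mgl2 cluster had 0.369% against 0.306%, a log2 ratio of 0.27 (0.05 to 0.50). Ductal-like cells had 0.313% against 0.422%, a log2 ratio of -0.43 (-0.63 to -0.23), so both genomes' RNA was lower there in HAMSAB.

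Split by complex, beta-like cells showed no common shift. Complex I RNA from the mitochondrial genome was 0.593% of UMIs in HAMS and 0.550% in HAMSAB, a log2 ratio of -0.11 (-0.17 to -0.05), while complex III RNA from the same genome, which is mt-Cytb alone, was 0.142% and 0.160%, a log2 ratio of 0.18 (0.07 to 0.29). Mitochondrial complex IV RNA was 0.920% and 0.947%, with a log2 ratio of 0.04, and mitochondrial complex V RNA had one of -0.05. Nuclear complex III RNA was 0.0310% and 0.0421%, a log2 ratio of 0.44 (0.21 to 0.67), the largest ratio of any complex in these cells. Nuclear complex IV RNA had a log2 ratio of 0.18 (0.05 to 0.31), nuclear complex I RNA 0.05, complex II RNA 0.05 and nuclear complex V RNA -0.07.

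Nuclear complex III RNA was higher in HAMSAB in both beta-like clusters, with log2 ratios of 0.42 in the Ucn3 cluster and 0.48 in the other. Nuclear complex IV RNA was not: its log2 ratio was 0.01 in the Ucn3 cluster and 0.36 in the other. Mitochondrial complex I RNA was lower in both, by -0.20 and -0.16 on the log2 scale. The sum of the mt- genes had log2 ratios of -0.11 (-0.16 to -0.06) and -0.02, so the ratio near 0 in all beta-like cells does not hold within the Ucn3 cluster.

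In delta-like cells the mitochondrial sums of complexes I, III, IV and V were higher in HAMSAB: complex I RNA was 0.477% and 0.608% (log2 ratio 0.35, 0.25 to 0.45), complex V had a log2 ratio of 0.31, complex IV 0.13 and complex III 0.23. Nuclear complex IV RNA was also higher there, by 0.32 (0.07 to 0.57). In macrophage-like cells mitochondrial complexes I, IV and V had log2 ratios of -0.22, -0.34 and -0.33. In T-like and B-like cells mitochondrial complex I RNA had log2 ratios of -0.18 and -0.19. Alpha-like cells differed mainly in mitochondrial complex III RNA, at 0.41 (0.20 to 0.63), and complex V RNA, at 0.21 (0.03 to 0.39).

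**Figure D3:**
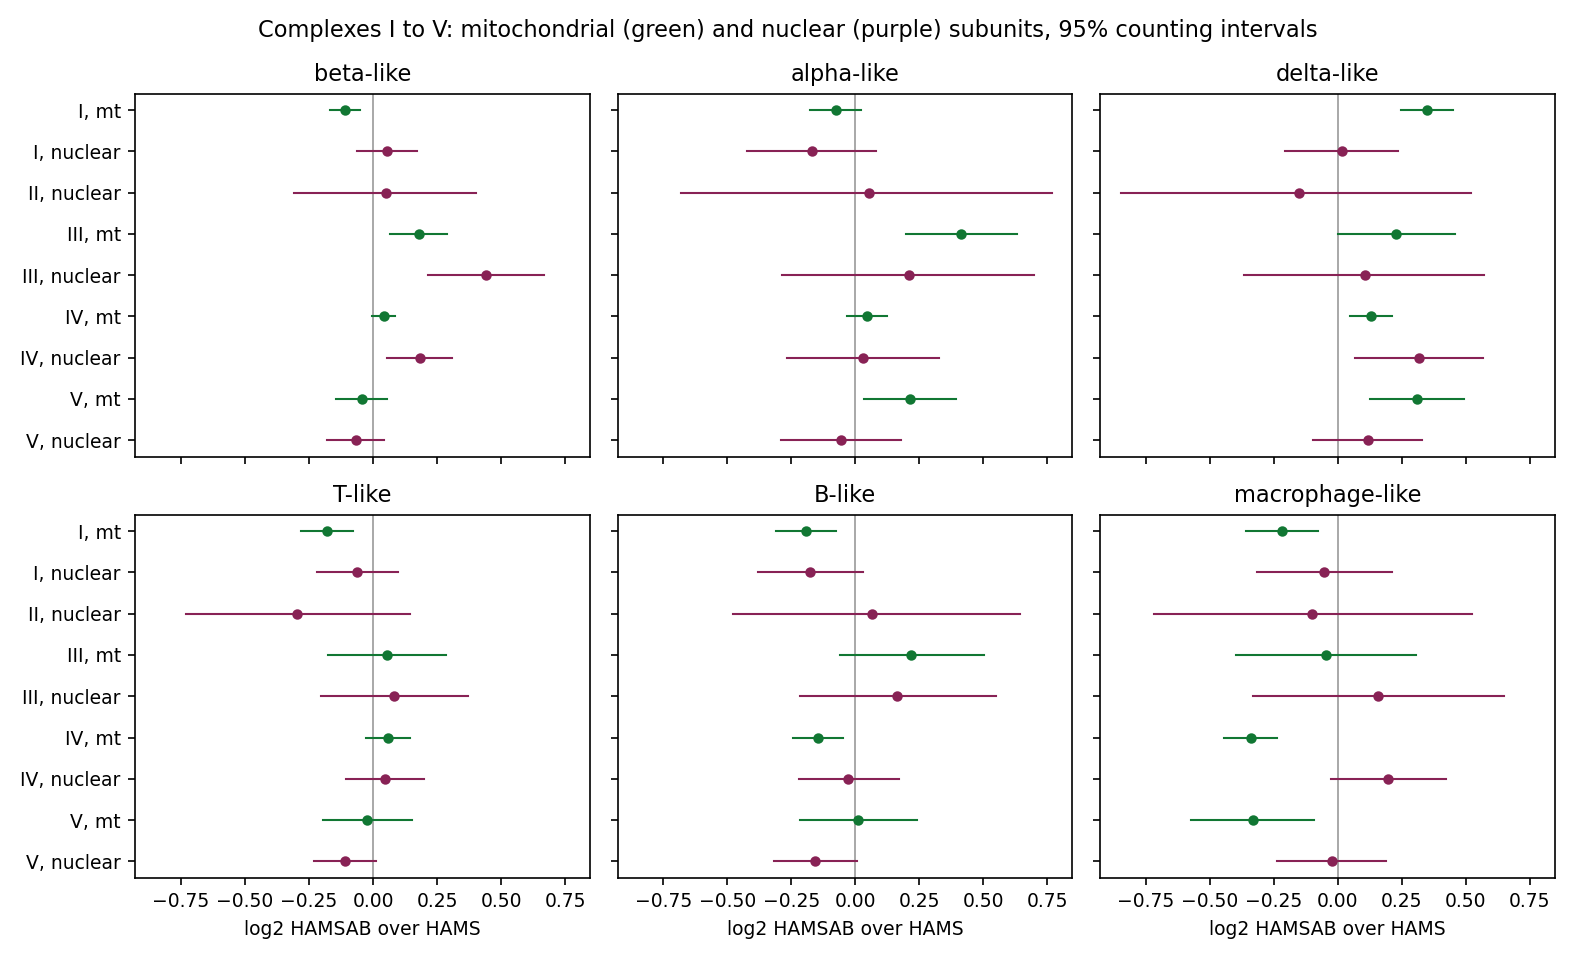
Log2 ratio of HAMSAB over HAMS for the summed RNA of each complex, mitochondrial-encoded in green and nuclear-encoded in purple, in 6 classes; bars are 95% counting intervals and the line marks 0. Beta-like cells have nuclear complex III at 0.44 and mitochondrial complex I at -0.11, and the mitochondrial sums lie to the right in delta-like and to the left in macrophage-like cells.

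Taken gene by gene in beta-like cells, the mt- genes separated within complex I. The subunits mt-Nd2, mt-Nd5 and mt-Nd6 were lower in HAMSAB, at 1229 and 996 CPM (log2 ratio -0.30, -0.43 to -0.17), 884 and 702 CPM (-0.33, -0.49 to -0.18) and 589 and 433 CPM (-0.44, -0.64 to -0.25). The other 4 complex I subunits of this genome were not: mt-Nd1 had 981 and 1074 CPM, mt-Nd4 1618 and 1669 CPM, mt-Nd4l 174 and 191 CPM and mt-Nd3 457 and 433 CPM, each with an interval that held 0. All 3 complex IV subunits were close in the libraries, with mt-Co1 at 6565 and 6737 CPM, mt-Co2 at 1060 and 1120 CPM and mt-Co3 at 1577 and 1609 CPM.

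The cytochrome b transcript mt-Cytb had 1418 CPM in HAMS and 1605 CPM in HAMSAB beta-like cells (log2 ratio 0.18, 0.07 to 0.29). The complex V transcripts had 1906 and 1855 CPM for mt-Atp6 and 37.7 and 28.6 CPM for mt-Atp8, whose interval was wide at -1.23 to 0.39. All of these genes except mt-Nd6 are read from long precursor RNAs of one strand, and their ratios in beta-like cells ran from -0.40 to 0.18. The low end was that of mt-Atp8, which shares its RNA with mt-Atp6. None of the 13 passed the 1.5-fold mark used below.

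Directions were then counted over classes for some of these genes. Beta-like cells, where the differences above were seen, are among these classes, and the share of all genes with such counts is not given here. Among classes where the gene had at least 50 UMIs, mt-Cytb had a log2 ratio above 0 in 12 of 13 and mt-Nd4l in 6 of 6. Some of the mt-Cytb ratios were near 0, such as 0.0042 in the Ppy cluster and 0.04 in cDC-like cells. The ratio was below 0 for mt-Nd6 in 8 of 9, mt-Nd2 in 9 of 11 and mt-Nd5 in 8 of 11. Delta-like cells were an exception for mt-Nd5, at 690 and 989 CPM (log2 ratio 0.52, 0.25 to 0.78). In B-like cells mt-Nd5 had 552 and 355 CPM (-0.64, -0.96 to -0.31) and mt-Nd2 812 and 554 CPM (-0.55). In T-like cells mt-Nd5 had 344 and 262 CPM (-0.39), and mt-Nd4l had 44.2 and 82.8 CPM (0.91). Below 50 UMIs the log2 ratio of mt-Nd4l lay on both sides of 0, at -1.67 in pDC-like and 0.90 in ductal-like cells. All of these classes come from the same pair of libraries, so they are not independent observations of a diet.

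In macrophage-like cells 11 of 11 mt- genes with at least 50 UMIs were lower in HAMSAB, mt-Co1 at 4667 and 3619 CPM (log2 ratio -0.37, -0.49 to -0.24) and mt-Nd2 at 770 and 493 CPM (-0.64, -0.98 to -0.31) among them, while mt-Nd4l, with 48 UMIs, had 62.3 and 121 CPM. In delta-like cells 11 of 12 were higher, mt-Nd1 at 839 and 1189 CPM (0.50) and mt-Nd4 at 1412 and 1945 CPM (0.46). In the Ppy cluster 10 of 11 were higher, with mt-Co3 at 1246 and 2244 CPM (0.85). In alpha-like cells 6 of 12 were higher and 6 lower, and mt-Cytb led with 1243 and 1655 CPM (0.41, 0.20 to 0.63). The same genes make up the mitochondrial sums given above, so these counts are no separate evidence. The share of all genes on each side of 0 is not given here.

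In beta-like cells 73 of the 98 members reached 50 UMIs when the libraries were added, and of these 10 were at least 1.5-fold higher in HAMSAB and 4 at least 1.5-fold lower. Of all 4655 genes with as many UMIs there, 9.73% were at least 1.5-fold higher and 8.74% lower, so 10 of 73 and 4 of 73 lie near the background. By counting interval, 10 members lay wholly above 0 beside 14.0% of all genes and 7 wholly below 0 beside 11.8%. All 14 members past 1.5-fold were nuclear, of 60 tested nuclear members. The median log2 ratio of the nuclear members was 0.07 and that of all genes 0.02. The remaining 25 members had fewer UMIs and entered no count.

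In complex I, the entry point of electrons from NADH, 24 of 36 nuclear members had enough UMIs, and 12 had ratios above 0 and 12 below. The accessory subunit Ndufa12 had 42.3 CPM in HAMS and 74.9 CPM in HAMSAB (log2 ratio 0.82, 0.23 to 1.42), which was -0.27 within the Ucn3 cluster. Its fellow accessory subunit Ndufc2 had 39.6 and 69.4 CPM (0.81, 0.20 to 1.43). Lower in HAMSAB were Ndufa7, at 75.4 and 47.6 CPM (-0.66, -1.28 to -0.08), and the iron-sulphur subunit Ndufs7, at 35.0 and 19.1 CPM (-0.88), whose interval reached 0.04.

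Of the 4 subunits of complex II, succinate dehydrogenase, 3 had enough UMIs and none passed 1.5-fold. The flavin-binding subunit Sdha had 61.6 and 50.4 CPM and the iron-sulphur subunit Sdhb 31.3 and 43.6 CPM, with intervals that held 0 for both.

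In complex III, which hands electrons to cytochrome c, 7 of 8 nuclear members had enough UMIs and 7 of 7 had ratios above 0. Largest among them was Uqcrq, a small subunit next to cytochrome b, with 82.8 and 136 CPM (log2 ratio 0.72, 0.29 to 1.14). The core protein Uqcrc2 followed at 0.70, with Uqcrb at 0.42, Uqcrh at 0.38, Uqcr11 at 0.33, the Rieske iron-sulphur protein Uqcrfs1 at 0.28 and the core protein Uqcrc1 at 0.04. Only the intervals of Uqcrq and Uqcrc2 lay above 0, and Uqcr10, with too few UMIs to be counted, had a log2 ratio of -0.23. The share of all genes above 0 in these cells is not given here. Cytochrome c1 (Cyc1), a subunit of this complex outside the rule for symbols, had 42.3 and 34.0 CPM, a log2 ratio of -0.31. T-like cells showed Uqcrq the other way, at 111 and 61.1 CPM (-0.86, -1.48 to -0.23).

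In complex IV, cytochrome c oxidase, 11 of 20 nuclear members had enough UMIs in beta-like cells, 7 with ratios above 0 and 4 below. Cox7b had 150 and 260 CPM, a log2 ratio of 0.79 (0.48 to 1.10), whose bound nearest 0 was the furthest from 0 of the nuclear members. Cox7a2 had 118 and 186 CPM (0.66, 0.30 to 1.02), and Cox7c had a log2 ratio of 0.85. The subunits Cox4i1, at 149 and 106 CPM (-0.49, -0.90 to -0.09), and Cox5a, at 54.3 and 38.1 CPM (-0.51, interval to 0.16), which join the complex early in assembly, were lower in HAMSAB.

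In complex V, ATP synthase, 15 of 17 nuclear members had enough UMIs, 6 with ratios above 0 and 9 below. Atp5d, the delta subunit of the central stalk, had 176 CPM in HAMS and 95.3 CPM in HAMSAB (log2 ratio -0.88, -1.30 to -0.48). Atp5f1, a subunit of the outer stalk, had 60.7 and 99.3 CPM (0.71, 0.21 to 1.21). The catalytic subunits were level, with Atp5a1 at 161 and 165 CPM and Atp5b at 160 and 169 CPM. The intervals of Atp5d and Atp5f1 thus lay on opposite sides of 0 although both belong to 1 enzyme.

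**Figure D4:**
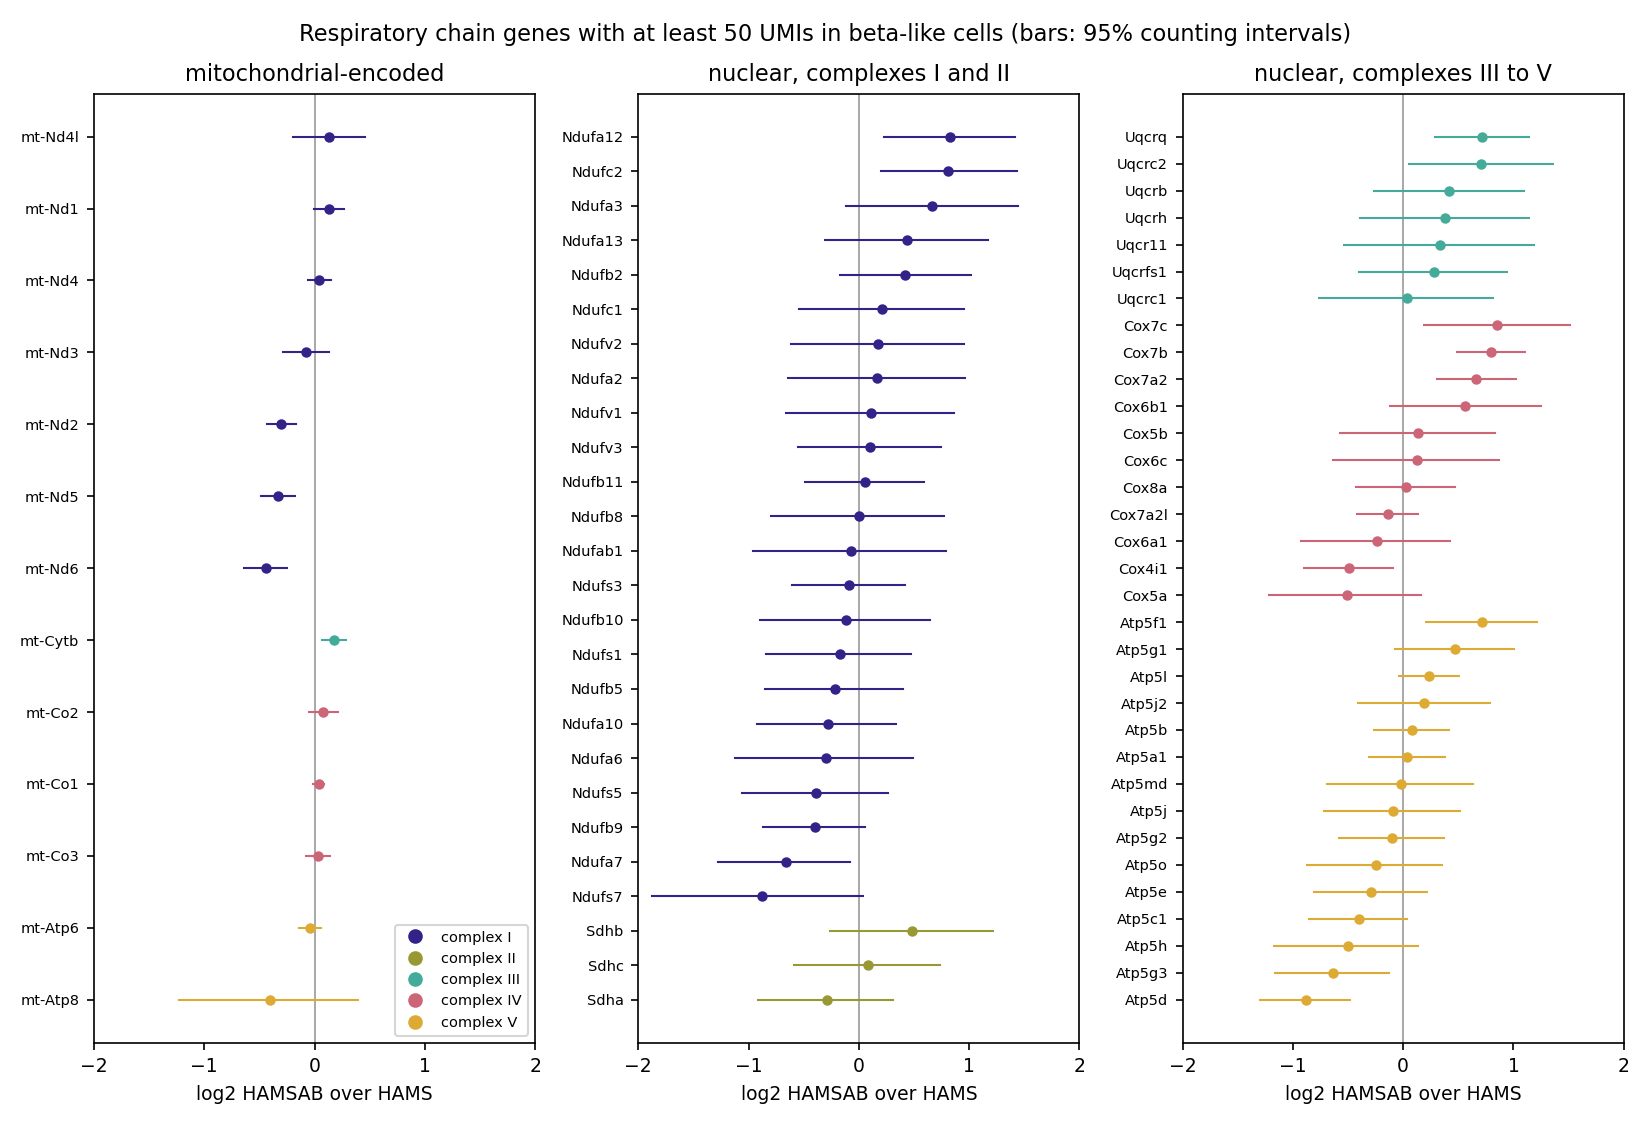
Log2 ratio of HAMSAB over HAMS in beta-like cells for 72 of the 73 respiratory chain genes with at least 50 UMIs (1 is not drawn), coloured by complex, with 95% counting intervals. Of the 13 mt- genes all but mt-Atp8 and mt-Nd4l have narrow intervals near 0, with mt-Nd6 at -0.44 and mt-Cytb at 0.18, and nuclear members run from Atp5d at -0.88 to Cox7c at 0.85 with wide ones.

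The isoform pairs of complex IV showed which paralogs had RNA in the islet preparations, immune and ductal-like cells included. Over all kept cells of HAMS and HAMSAB, Cox4i1 had 553 and 561 UMIs and the lung and oxygen-regulated form Cox4i2 had 0 and 1. The muscle forms were nearly absent, with 1 and 0 UMIs of Cox7a1, 1 and 4 of Cox6a2, and 0 and 0 of Cox8b beside 289 and 369 of Cox8a. The germ-cell forms Cox6b2 and Cox7b2 had 3 and 8 UMIs and 1 and 0, and Cox8c had 0 and 0. Ndufa4l2 had 1 and 0 UMIs beside 106 and 181 of Ndufa4. For a gene with 0 UMIs over all kept cells, 3 counts correspond to 0.849 CPM in HAMS and 0.733 CPM in HAMSAB.

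Cox7a2 and Cox7a2l were the only Cox7a forms with appreciable counts. Cox7a2 is a subunit of complex IV, and Cox7a2l is known to link complexes III and IV into supercomplexes. Their balance depended on the class and on the library. In beta-like cells Cox7a2 made up 30.2% (25.9 to 34.8) of the family's UMIs in HAMS and 43.1% (37.6 to 48.7) in HAMSAB. In delta-like cells the shares were 32.3% and 51.3%, in macrophage-like cells 36.0% and 55.2%, in B-like cells 41.7% and 55.6% and in alpha-like cells 36.0% and 51.2%. The differences in percentage points were 12.9 (5.90 to 19.8), 19.0 (4.36 to 32.6), 19.2 (4.15 to 33.0), 14.0 (0.83 to 26.3) and 15.2 (-2.54 to 32.1). Among the classes named here other than plasma-like cells, T-like cells had the highest share in HAMS, 67.1%. In HAMSAB they had 65.1%, a difference of -2.01 points (-11.5 to 7.91). Plasma-like cells, with few counts, had 6 UMIs of Cox7a2 and 0 of Cox7a2l in HAMS, and 19 and 9 in HAMSAB.

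Taking these forms apart, Cox7a2l had 271 and 246 CPM in beta-like cells and log2 ratios below 0 in 6 of 7 classes, whereas Cox7a2 had ratios above 0 in 6 of 7. Beta-like cells are among the classes of both counts, and the share of all genes with such counts is not given here. Within the Ucn3 cluster of beta-like cells the share of Cox7a2 was 10.7 points higher in HAMSAB and within the other cluster 7.14 points, the second with an interval from -4.05 to 17.9. With each cell thinned to 500 UMIs the beta-like difference was 3.38 points (-6.71 to 13.7), from fewer counts and without the shallower cells. This interval holds both 0 and the difference of all beta-like cells, so a change in size was not resolved. The 3 genes for the c subunit of complex V, whose mature proteins are identical, showed a second balance. In beta-like cells Atp5g1, Atp5g2 and Atp5g3 gave 23.0%, 37.0% and 40.0% of their family in HAMS and 34.5%, 37.5% and 28.0% in HAMSAB. In T-like cells Atp5g1 gave only 11.6% and 9.92%.

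In other classes the counts past 1.5-fold were as follows. Delta-like cells had 3 of 24 members higher and 0 lower, beside 10.3% and 5.78% of all genes: Cox7a2 at 91.7 and 166 CPM (log2 ratio 0.86, 0.15 to 1.58), Cox7b at 135 and 224 CPM (0.74, 0.15 to 1.33) and Atp5g2 at 91.7 and 141 CPM (0.62, interval from -0.12). By counting interval 10 of the 24 lay above 0 and 0 below, beside 11% and 7.13% of all genes, and 8 of the 10 were mt- genes, whose high counts give narrow intervals. Alpha-like cells had 0 of 20 higher and 1 lower, beside 6.77% and 15.5%: Cox7a2l at 177 and 109 CPM (-0.70, interval to 0.04), and intervals lay above 0 for 2 members and below for 0, beside 6.58% and 15.6%. Macrophage-like cells had 3 of 22 higher and 2 lower, beside 8.38% and 9.27%, with Cox7b at 231 and 422 CPM (0.87, 0.38 to 1.37) and Cox8a at 71.2 and 132 CPM (0.89, 0.01 to 1.84). Intervals of 2 members lay above 0 and of 5 below, beside 10.8% and 9.04%, and all 5 were mt- genes. In delta-like cells with at least 500 genes the log2 ratio of Cox7a2 was -0.08. The interval of Cox7b lay above 0 in beta-, delta- and macrophage-like cells.

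Among T-like cells 2 of 53 members were higher and 4 lower, beside 9.63% and 6.17% of all genes, and by interval 1 and 7, beside 9.92% and 7.99%. The complex I accessory subunit Ndufb9 had 95.8 and 47.5 CPM (log2 ratio -1.01, -1.71 to -0.32), and Ndufv2, a complex I subunit that binds an iron-sulphur cluster, had a log2 ratio of -0.97. In complex V, Atp5b had 398 and 297 CPM (-0.42, -0.72 to -0.12) and Atp5d 189 and 124 CPM (-0.61, -1.07 to -0.16). Among B-like cells 4 of 37 members were higher and 3 lower, beside 12.1% and 6.57%, and by interval 2 and 5, beside 8.98% and 6.45%. Sdha had 36.5 and 79.1 CPM (1.12, 0.03 to 2.40), from 8 UMIs in HAMS, and Cox7a2 137 and 206 CPM (0.59). Across classes, beta-like cells included, Atp5d had a ratio below 0 in 6 of 7, Atp5g3 in 5 of 5 and Cox4i1 in 6 of 7. These genes were among the lowest in beta-like cells, and the share of all genes with such counts is not given here. Other members were split, with Atp5a1 above 0 in 4 of 8 classes.

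The Ppy cluster had 3 of 11 members higher and 0 lower, beside 12.9% and 14.8% of all genes, and the 3 were mt-Co3, mt-Nd4 and mt-Atp6. The Ifitm1 cluster had 1 of 28 higher and 0 lower beside 8.02% and 6.51%, and ductal-like cells 1 of 12 and 2 of 12 beside 14.3% and 8.85%. The cDC-like and pDC-like classes each had 0 higher and 1 lower, of 13 and 6 members, beside 10.3% and 8.69%, and 17.5% and 9.28%. The Mgl2 cluster had 1 of 11 higher and 0 lower beside 15.8% and 9.35%, and the plasma-like class 1 of 7 and 0 of 7 beside 19.5% and 8.18%. The endothelial-like class had 1 of 3 higher and 0 lower beside 8.33% and 26.9%. Over all kept cells 3 of 90 members were higher and 3 lower, beside 10.4% and 12.6%.

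Levels per cell added a difference that the class sums do not show. The median beta-like cell had 1.09% mitochondrial UMIs in HAMS and 0.871% in HAMSAB although the sums agreed within counting error, and 3.42% and 6.99% of beta-like cells had no mitochondrial UMI at all. Cells without one were 5.59% and 12.7% of macrophage-like cells, 2.08% and 11.2% of B-like cells, 4.47% and 10.4% of T-like cells and 5.69% and 11.2% of delta-like cells. The share was higher in HAMSAB in 12 of 14 classes and lower in 2, ductal-like cells and the Ppy cluster. It depends on depth, and beta-like cells had medians of 672.5 and 812.5 UMIs. With every cell thinned to 500 UMIs, and 399 and 142 shallower beta-like cells left out, it was 6.02% and 10.9%. Over all kept cells 5.26% in HAMS and 11.3% in HAMSAB had no mitochondrial UMI, while 5.23% and 2.79% had more than 5% mitochondrial UMIs.

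Depth also ordered the beta-like cells. In HAMS the mitochondrial percent was 2.67% in the quartile of cells with the fewest UMIs, 2.09% and 1.81% in the middle ones and 1.46% in the deepest, whereas in HAMSAB it was 1.82%, 1.84%, 1.59% and 1.94%. The log2 ratio was therefore -0.55 in the shallowest and 0.41 in the deepest quartile, and the ratio near 0 for all beta-like cells averages over them. The deepest quartile of delta-like cells likewise had 1.56% and 2.07% (0.41). Macrophage-like cells had 1.30% and 0.908% in the third quartile and 1.20% and 1.16% in the deepest. The Ucn3 cluster had a median of 589 UMIs and the other beta-like cluster 1090.5, so depth and cluster move together in these cells. Barcodes with fewer than 200 genes had 2.15% mitochondrial UMIs in HAMS and 0.993% in HAMSAB. Their part in the class values was not tested.

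**Figure D5:**
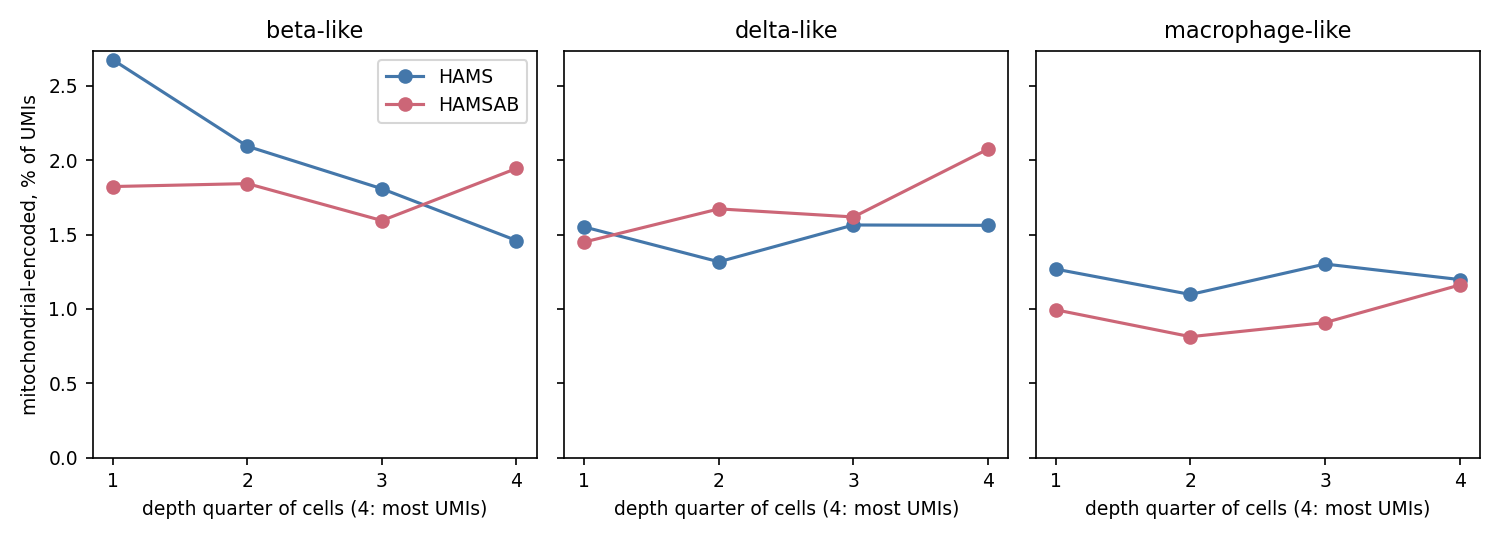
Mitochondrial-encoded RNA as a percent of UMIs in quartiles of cells by UMI number (1 fewest, 4 most), in HAMS (blue) and HAMSAB (red). In beta-like cells the HAMS line descends from 2.67% to 1.46% while the HAMSAB line ends at 1.94%, so the lines cross.

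Abundant transcripts moved beside the members too. In beta-like cells Actb was 6.12% of UMIs in HAMS and 3.80% in HAMSAB, a log2 ratio of -0.69, and Malat1, an RNA kept in the nucleus, was 1.79% and 2.81%, a log2 ratio of 0.65. Malat1 had a ratio above 0 in 14 of 14 classes. The cytosolic ribosomal protein genes together had a log2 ratio of -0.01 in beta-like cells. The part of these in the respiratory chain values was not tested.

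The authors' deposited tables of genes that differed between the diets named 12 entries for members, all of them mitochondrial-encoded and all lower in HAMSAB. For beta cells the authors' deposited table gave log2 changes of -0.47 for mt-Nd6, -0.45 for mt-Nd2 and -0.62 for mt-Nd5, with unadjusted p-values of 0.00529, 9.48e-05 and 0.000225 and adjusted p-values of 1 for each. For B cells the authors' deposited table listed mt-Nd5 at -0.79, mt-Nd2 at -0.65, mt-Co2 at -0.41 and mt-Co1 at -0.20, again with adjusted p-values of 1. For macrophages the authors' deposited table listed mt-Nd2 at -0.60, mt-Co3 at -0.44, mt-Co2 at -0.43 and mt-Co1 at -0.40, adjusted p-values 1. For conventional dendritic cells the authors' deposited table held mt-Co1 at -0.28, with an adjusted p-value of 0.392. In the cDC-like class used here mt-Co1 had 3875 and 3778 CPM in HAMS and HAMSAB, a log2 ratio of -0.04 (-0.20 to 0.13). Of the 115 genes in the authors' deposited table for beta cells 53.0% were lower in HAMSAB, and in the authors' deposited tables for B cells, macrophages and conventional dendritic cells, of 27, 37 and 58 genes, 51.9%, 67.6% and 39.7% were. None of the 57, 41, 34 and 7 genes in the authors' deposited tables for alpha, delta, T and plasmacytoid dendritic cells was a member. The libraries are the same as those counted above, although the classes need not hold the same cells. The authors' deposited tables are therefore no separate evidence, and p-values over cells do not measure the spread between mice.

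The genes that serve the respiratory chain were read from lists drawn up beside the members, in beta-like cells. Of 48 assembly factors 7 had at least 50 UMIs, 2 of them at least 1.5-fold higher and 1 lower: Ttc19, a factor for complex III, had 50.6 and 95.3 CPM (log2 ratio 0.91, 0.38 to 1.45), Cox14, for complex IV, a log2 ratio of 0.69, and Uqcc2, for complex III, 58.0 and 34.0 CPM (-0.77, -1.50 to -0.08). Of 26 genes that copy, transcribe and process the mitochondrial genome 6 had enough UMIs, 2 higher and 1 lower: the transcription factor Tfam had 25.8 and 44.9 CPM (0.80, 0.03 to 1.58), the RNA granule protein Grsf1 44.2 and 81.7 CPM (0.89, 0.32 to 1.47) and the polymerase subunit Polg2 53.4 and 19.1 CPM (-1.49, -2.44 to -0.63). Of 78 mitochondrial ribosomal proteins 22 had enough UMIs, 2 higher and 4 lower, with a median of 0.07. All of these counts stand beside the same 9.73% and 8.74% of all genes.

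Of 18 genes of the tricarboxylic acid cycle, which supplies NADH and succinate, 10 had enough UMIs in beta-like cells. None was at least 1.5-fold higher and 1 lower, and 7 of 10 ratios were below 0, with a median of -0.21. Pdha1, of pyruvate dehydrogenase, had 61.6 and 36.7 CPM (log2 ratio -0.75, -1.45 to -0.08), while the oxoglutarate dehydrogenase gene Ogdh had 90.1 and 129 CPM (0.52, 0.10 to 0.94). Of 14 import genes 7 had enough UMIs, 1 of them lower, with a median of -0.26. Among the 9 regulators of mitochondrial biogenesis 3 had enough UMIs: Yy1, 132 and 180 CPM (0.44, 0.09 to 0.79), Ppargc1a at 0.33 and Nfe2l2 at -0.15. Cytochrome c itself, Cycs, had 58.0 and 49.0 CPM (-0.24).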

How the data were processed

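Gene by cell UMI counts of 2 libraries, 1 per diet, were used as the authors deposited them, made with Cell Ranger 5.0.0 per the file headers. The submitters' processing notes name mm10, GRCm38 and Seurat. The annotation release, cell calling, strand and the treatment of reads that match several places are not stated in any source used here, so genes with near-identical pseudogenes or nuclear copies carry that uncertainty. In 8 further tables the authors deposited a log2 change, a p-value and an adjusted p-value between the diets, and no source used here names their test. Their 16 columns with shares of cells per diet were not used.

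The members and all lists were chosen with earlier results of these data known. Cells needed 200 or more genes and 20% or less mitochondrial UMIs. They were scaled to 10000 UMIs and clustered with scanpy 1.11.5 and igraph 0.11.9 (genes in at least 3 cells, 2000 variable genes with members and mt- genes left out, 30 components, 15 neighbours, Leiden resolution 1). Scrublet marked 4 of 8813 cells (0.0454%) as doublets, which was taken as a failure of the method, and all cells were kept. UMIs were summed per class and library. Levels have exact Poisson intervals, shares Clopper-Pearson intervals, ratios exact intervals from the binomial split of the UMIs, and differences of shares Newcombe intervals, all at 95% and for counting error only. Only the intervals of ratios were tested on simulated data, for beta-like and T-like cells. Those counts were drawn with counting error alone, so the simulation cannot show how the intervals hold under further variation. Counts at 1.5-fold took members whose UMIs in the 2 libraries came to 50 or more. Coordinates are GRCm38.

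Named are all mt- genes in beta-like cells, isoform families, the highest member of each complex, the 6 highest and 6 lowest nuclear members in beta-like cells by the interval bound nearest 0 (3 and 3 in alpha- and delta-like, 2 and 2 elsewhere), up to 2 and 2 of each further list in beta-like cells, and members in the authors' tables. Other genes named were chosen after their values were seen. Python 3.11.15, numpy 2.4.6, scipy 1.17.1 and pandas 2.3.3 were used, and 16 alternatives were tried, 12 of them listed before this round of computation. Values of some single genes are not reported here, and they stay in the counts.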

Additional observations from a re-analysis of the deposited data

Results flagged for a closer look

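Summed respiratory chain RNA had counting intervals above 0 in some classes and below 0 in others under the same contrast of HAMSAB over HAMS. Whether the classes differ was not tested, since each diet has 1 library. For mitochondrial-encoded RNA the log2 ratio was 0.4431 in the Ppy cluster and 0.2273 in delta-like cells, against -0.1248 in B-like cells, -0.09857 in the Ifitm1 cluster, -0.1864 in ductal-like cells, -0.2883 in macrophage-like cells and -0.3138 in pDC-like cells. For nuclear-encoded RNA it was 0.2732 in the Mgl2 cluster, 0.0757 in beta-like cells and 0.1243 in delta-like cells, against -0.4315 in ductal-like cells.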

How the results depend on the processing

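In all 16 alternatives were tried, 12 of them planned; not every one applies to every result. Splits by beta-like cluster and by depth quartile were chosen after seeing the data. Of the sums and counts of members past 1.5-fold in beta-, alpha-, delta-, T-, B- and macrophage-like cells, 133 values stayed within counting error, or within 1.5 times for counts, and 89 moved. Of 2131 other values 1828 stayed, 290 moved and 13 turned sign. The cause was not tested. No paired analysis was possible because each diet has 1 library. Where a sum had 10 values, these were the reported one and 9 recomputed ones that leave out the splits chosen after seeing the data. Among such sums the nuclear one stayed above 0 in beta-like and delta-like cells, with a lowest value of 0.0011 in beta-like cells. The nuclear sum stayed below 0 in B-like and T-like cells, and the mitochondrial sum stayed below 0 in B-like and cDC-like cells.

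Counts of members past the fold moved with the limits. Ratios from few UMIs have wide intervals. The counts here and in the paragraphs below stand without the share of all genes at the same limit. They can therefore not be set against a background. At 2-fold they were 1 in B-like, 1 in T-like and 0 each in alpha-, beta-, delta- and macrophage-like cells. With at least 1 UMI in each library they were 27 in B-like, 22 in T-like, 45 in alpha-like, 26 in delta-like and 35 in macrophage-like cells, and with at least 20 UMIs they were 16, 19, 15, 11 and 15. With members among the clustering genes the alpha-like count was 0.

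Among cells with at least 500 genes the counts were 1 in B-like, 0 in alpha-like, 8 in beta-like, 1 in delta-like and 1 in macrophage-like cells. The mitochondrial log2 ratios there were -0.037 in B-like, -0.040 in alpha-like, 0.046 in beta-like, -0.067 in delta-like and 0.18 in macrophage-like cells, and the nuclear ones 0.16 in alpha-like, 0.21 in beta-like and 0.30 in macrophage-like cells. Cox7a2 turned to -0.078 in delta-like and mt-Nd4l to -0.55 in macrophage-like cells. Thinned to 500 UMIs, the counts were 2 in B-like, 4 in beta-like, 1 in delta-like and 2 in macrophage-like cells, the mitochondrial ratios 0.12 in alpha-like and -0.049 in beta-like cells, and the nuclear ratio 0.15 in beta-like cells.

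In the Ucn3 cluster alone the beta-like ratios were -0.11 (mitochondrial) and -0.028 (nuclear), and Ndufa12 turned to -0.27. In the other beta-like cluster alone the count was 6 and the nuclear ratio 0.21. In the deepest quartile the counts were 2 in B-like, 1 in T-like, 0 in alpha-like and 1 in macrophage-like cells. The mitochondrial ratios there were 0.029 in B-like, -0.13 in T-like, 0.41 in beta-like, 0.41 in delta-like and -0.045 in macrophage-like cells, and the nuclear ones 0.036 in T-like, 0.19 in beta-like and 0.19 in macrophage-like cells. Atp5f1 turned to 0.024 in B-like and Uqcrq to 0.016 in T-like cells.

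In the shallowest quartile the counts were 2 in B-like, 2 in T-like, 0 in alpha-like, 8 in beta-like, 0 in delta-like and 2 in macrophage-like cells. The mitochondrial ratios there were -0.21 in B-like, -0.28 in T-like, -0.55 in beta-like and -0.10 in delta-like cells, and the nuclear ones 0.25 in B-like, -0.33 in alpha-like, -0.28 in beta-like, 0.25 in delta-like and -0.32 in macrophage-like cells. Values that turned were Atp5d at 0.90 in B-like, Atp5e at -1.40 and mt-Nd4l at -0.18 in T-like, Cox7a2 at -0.21 and Ndufa12 at -0.14 in beta-like, Cox7a2l at 0.68 in alpha-like and Cox8a at -0.55 in macrophage-like cells, and the Cox7a2 share of its family in B-like cells, at -53.8 percentage points.

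With classes set cell by cell from marker scores the counts were 4 in alpha-like and 3 in macrophage-like cells and the mitochondrial ratios -0.11 in T-like, -0.10 in alpha-like and -0.18 in macrophage-like cells. With cells weighted equally the counts were 10 in T-like and 0 in alpha-like cells, the mitochondrial ratios -0.20 in B-like, 0.11 in alpha-like, -0.21 in beta-like and 0.16 in delta-like cells, and the nuclear ratio 0.0011 in beta-like cells. Without the mitochondrial limit the counts were 0 in alpha-like and 8 in beta-like cells and the beta-like ratios -0.15 (mitochondrial) and 0.21 (nuclear). Without the 5% of cells with the most UMIs the macrophage-like count was 1 and the mitochondrial ratios 0.13 in alpha-like and -0.12 in beta-like cells. With hormones, Actb, Malat1 and mt- genes out of the denominator the alpha-like mitochondrial ratio was 0.13, and at Leiden resolution 2 the T-like one was 0.068.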

Other observations

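The shares of single mt- genes also differed between classes. Of all mitochondrial UMIs, mt-Nd1 gave 5.31% in HAMS and 5.82% in HAMSAB beta-like cells, against 9.70% and 9.48% in B-like cells. The mt-Nd6 transcript gave 3.18% and 2.35% in beta-like cells and 2.04% and 1.70% in T-like cells.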
